A study of Homo sapiens with 8 samples.

Results

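The 8 genes described here encode the FOS, JUN and ATF3 proteins of the AP-1 transcription factor: FOS, FOSB, FOSL1, FOSL2, JUN, JUNB, JUND and ATF3. They were chosen by gene symbol, and each symbol had 1 row among the 25918 gene models of the deposited table. The mark N6-methyladenosine (m6A), an abundant modification inside messenger RNAs, had been mapped by antibody pull-down of RNA fragments in human cultures labelled HepG2, a liver cancer cell line. The groups were UV irradiation at 0.04 J/cm2 with 4 h of recovery, heat shock at 43 °C for 30 min, hepatocyte growth factor (HGF, also called scatter factor) at 10 ng/ml, and interferon gamma (IFNg) at 200 ng/ml. The labels give overnight exposure for HGF and IFNg, and their wording leaves unclear whether the recovery time also applied to heat shock. All cultures were grown in the same serum-containing medium, and no untreated culture was analysed here. Each of the 4 treatments had 1 pull-down and 1 input library, so no value below has a replicate and no test was possible.

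AP-1 is a dimer of basic leucine zipper (bZIP) proteins. JUN proteins pair with each other or with FOS proteins, whereas FOS proteins need a partner from the JUN group. FOS, FOSB, JUN, JUNB and ATF3 are immediate early or stress-induced genes, whose transcripts appear within minutes of growth factor, cytokine or stress signals and decay quickly. Kinases of the ERK, JNK and p38 families act on the factors that transcribe them and on the JUN and ATF proteins themselves. Most m6A is laid down on the adenosine of a GGAC or related core, often in long exons and near stop codons, and it is a mark known to shorten the life of many transcripts.

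The sequences around the sites that carry the peak results are shown first, as DNA letters of the transcript strand, 5′ to 3′, from GENCODE 29 transcripts on GRCh38. Capitals mark each core searched for, which was GGAC followed by A, C or T. The FOSB stretch lies in its 5′ untranslated region, the FOS stretch and the last JUND stretch lie in the authors' class around the stop codon, the FOSL2 stretch lies in its 3′ untranslated region, and the JUNB stretch lies just past its stop codon. The first JUND stretch is coding sequence.
FOSB 443 to 472: ccccGGACAgcgtactttgaGGACTcgctc
FOS 1462 to 1491: gcatccatgtgtGGACTcaagtccttacct
FOSL2 2051 to 2080: tttggtagacttGGACAtctctctggcttc
JUNB 1328 to 1357: ctgcccctttacGGACAccccctcgcttgg
JUND 915 to 944: gcccatcgacatGGACAcgcaggagcgcat
JUND 1355 to 1384: gcccaGGACTcgacaagctGGACCccctgc
The numbers are positions counted from the start of the deposited transcript model. For FOS, FOSB and FOSL2 the exon lengths fixed the offset between the deposited model and the GENCODE transcript. The single-exon models of JUNB and JUND differed from GENCODE by 4 and 7 nt in length, so their positions may be off by that much. JUN was not placed this way.

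Expression was deposited as a rank among all gene models of the treatment, which is given here as a percentile on a scale of 0 to 100. A percentile holds no amount, so no fold change can be given, and the depth of the libraries is unknown. The lowest possible percentile was 45.5 under UV, 32.7 under heat shock, 20.4 under HGF and 18.4 under IFNg, where ties met. Values under 45.5 were raised to it before treatments were compared. The shift of a gene in a treatment is its percentile minus the median of its other 3 percentiles, and 10 points were taken as a marked shift. All 8 genes reached percentile 60 in at least 1 treatment, as did 12624 gene models, which serve as the background below.

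The cell label was checked against marker genes. Of 10 hepatocyte and HepG2 markers, only TTR (transthyretin) reached percentile 60 in any treatment, at 76.1 under UV, 71.5 under heat shock, 43.0 under HGF and 42.0 under IFNg. ALB (albumin) stood at 45.5, 57.6, 24.9 and 22.3 in the same order, and AFP (alpha-fetoprotein) at 45.5, 32.7, 20.4 and 22.4. Under UV, 8 of the 10 markers were at the lowest percentile, and in no treatment did any of them have a peak. Of 6 blood cell markers only HBB reached percentile 60, at 60.9 under UV, and it was at the lowest percentile in the other 3 treatments. Of 7 fibroblast and endothelial markers, DCN, COL1A1 and COL3A1 reached percentile 60, with the list spanning 45.5 to 79.8 under UV and 18.5 to 80.9 under IFNg. Of 4 cholangiocyte markers 3 reached percentile 60. The keratin KRT7 stood between 99.2 and 99.8 in all 4 treatments, KRT19 between 58.8 and 79.2 and SOX9 between 43.7 and 61.0, whereas EPCAM was at the lowest percentile in all but heat shock. VIM (vimentin), a filament gene of mesenchymal and many cultured cells, stood between 99.7 and 99.8. It was in none of the marker lists and came from the list of AP-1 target genes described below. These values go against the HepG2 label for the defining hepatocyte genes. Their part in the AP-1 values was not tested.

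FOS, the founding member and the usual partner of JUN, had the widest spread. Its gene model (iduc001xrn.1) lies on chromosome 14 from 74815284 to 74818665, plus strand, in deposited coordinates, whose build the sources used here do not give and which are not those of GRCh38. Its percentile was 66.7 under UV, 38.5 under heat shock, 88.5 under HGF and 91.3 under IFNg. HGF and IFNg were close to each other and high, UV was lower, and heat shock was near the lowest value possible. Its shifts were -21.9 points under UV, -43.0 under heat shock, 21.9 under HGF and 24.6 under IFNg. With the GC correction described below they were -17.5, -38.2, 17.5 and 19.5, so all 4 kept their direction and stayed past 10 points. In these bulk samples, fewer cells with a transcript and less of it per cell cannot be told apart. Against the nearest of the other 3 treatments, only heat shock stood apart by 10 points, at -21.1, and IFNg exceeded HGF by 2.73.

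FOSB, a second FOS protein with the same immediate early behaviour, was the lowest of the 8 genes in all treatments but HGF, where ATF3 was lower. The model (iduc002pbx.2) lies on chromosome 19 from 50663093 to 50670277, plus strand. It stood at 47.2 under UV, 34.2 under heat shock, 61.6 under HGF and 56.9 under IFNg. The UV value lay just above the lowest percentile of that treatment. Its shifts past 10 points were -11.4 under heat shock and 14.3 under HGF, and neither stayed past 10 points with GC correction, at -0.104 and 7.26. With the lowest values left as deposited, the heat shock shift was -22.7.

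FOSL1 encodes FRA1, and FOSL2 encodes FRA2, the FOS proteins that lack a strong activation domain. FOSL1 (iduc001ogg.1, chromosome 11, 65416268 to 65424573, minus strand) stood at 67.1 under UV, 62.1 under heat shock, 69.1 under HGF and 91.8 under IFNg. IFNg was alone and the other 3 lay within a narrow range, and the IFNg shift was 24.7 points, or 15.3 with GC correction. FOSL2 (iduc002rma.1, chromosome 2, 28469283 to 28491020, plus strand) stood at 93.0, 88.9, 95.2 and 98.0 in the same order. Its range was 9.12 points, all near the top of the scale, and none of its shifts reached 10 points.

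JUN, the main partner of FOS, differed from the rest in being highest under UV. Its model (iduc001cze.1) lies on chromosome 1 from 59019051 to 59022373, minus strand. It stood at 86.9 under UV, 63.8 under heat shock, 75.3 under HGF and 83.1 under IFNg. UV and IFNg were neighbours, and heat shock was lowest. The shift was 11.6 points under UV and -19.3 under heat shock. With GC correction the UV shift was 16.7, whereas the heat shock shift was -7.45 and no longer past 10 points.

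JUNB (iduc002mvc.1, chromosome 19, 12763310 to 12765125, plus strand), which can restrain JUN in growth control, stood at 86.4 under UV, 83.2 under heat shock, 95.8 under HGF and 98.7 under IFNg. UV and heat shock were neighbours, as were HGF and IFNg, with the first pair lower. The shifts of -12.6 points under heat shock and 12.3 under IFNg turned to 3.56 and -2.30 with GC correction, so the JUNB directions depended on it. JUND (iduc002nip.2, chromosome 19, 18251563 to 18253432, minus strand), the JUN protein made in most resting cells, stood at 94.6, 89.4, 95.6 and 98.4. No JUND shift reached 10 points, with values from -6.20 under heat shock to 3.80 under IFNg. With GC correction they took the opposite directions, at 9.74 under heat shock and -9.43 under IFNg. The correction subtracts a bin median, so it can move top-ranked genes such as JUND and JUNB, which have little room above them.

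ATF3, a stress-induced bZIP factor that pairs with JUN proteins and often represses (iduc001hjf.1, chromosome 1, 210805320 to 210860739, plus strand), stood at 65.7 under UV, 60.6 under heat shock, 47.3 under HGF and 90.2 under IFNg. IFNg was alone at the top and HGF was lowest, so ATF3 was the only one of the 8 genes that was not lowest under heat shock. Its shifts were 29.6 points under IFNg and -18.4 under HGF, and 30.6 and -15.1 with GC correction. The plot of percentiles sets these values side by side.

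**Figure D1:**
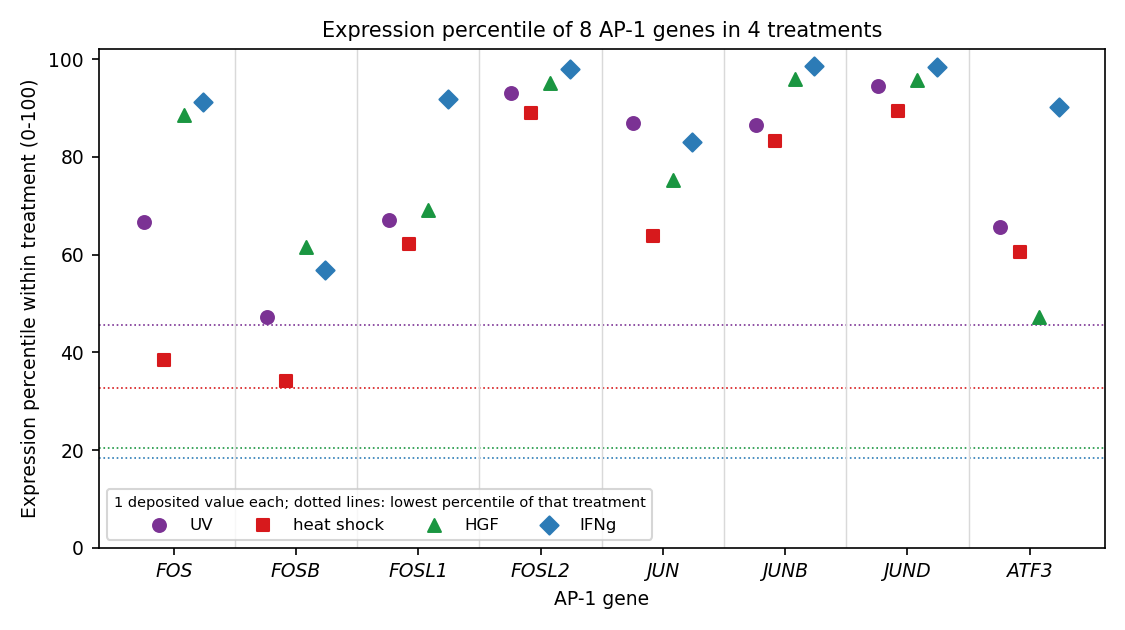
The vertical axis is the deposited expression percentile (0 to 100) and the horizontal axis the 8 AP-1 genes, with 1 value per treatment and no replicate. Dotted lines are the lowest percentile of each treatment (45.5 under UV, 32.7 under heat shock, 20.4 under HGF, 18.4 under IFNg); heat shock is the lowest value for 7 of the 8 genes.

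Heat shock was below all 3 other treatments for 7 of the 8 genes, and IFNg was above all 3 others for 6, all but FOSB and JUN. The same held for 26.9% and 25.5% of all 12624 gene models. With GC correction the counts were 3 and 4. No share over corrected models is given for these, so they cannot be read against a background. In 6 genes both UV and heat shock were below both HGF and IFNg, and in none were both above, against 30.9% and 36.3% of all models. The exceptions were JUN and ATF3. The 8 transcripts had GC contents from 46.7% (ATF3) to 69.7% (JUND), and among the 6196 models in that range 52.7% had both UV and heat shock below and 14.2% had both above. After a GC correction, which subtracted in each treatment the median of models in the same of 40 GC bins, 3 of the 8 genes had both below and 2 both above, against 25.9% and 29.0% of models. The ordering of treatments thus moved with GC content, whose part in the AP-1 values was not tested beyond this correction.

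Counted at 10 points, 1 of the 8 genes was above and 1 below the other treatments under UV (JUN and FOS), against 10.9% and 13.2% of all models. Under heat shock 0 were above and 4 below (FOS, FOSB, JUN and JUNB), against 15.0% and 17.0%. Under HGF 2 were above (FOS and FOSB) and 1 below (ATF3), against 13.0% and 10.9%. FOSB reached percentile 60 under HGF alone, so its pass of the filter and its count there rest on the same value. Under IFNg 4 were above (FOS, FOSL1, JUNB and ATF3) and 0 below, against 15.4% and 15.4%. A single gene is 12.5% of the 8, so the counts under UV and HGF lay within about a gene of the background, while the 4 below under heat shock and the 4 above under IFNg were 50% of the genes. With GC correction the 4 under heat shock became 1 (FOS), and the 4 under IFNg became 3 (FOS, FOSL1 and ATF3), against 6.30% of all corrected models below under heat shock and 6.81% above under IFNg. The median shift of the 8 genes was -2.10 points under UV, -9.22 under heat shock, 2.10 under HGF and 10.95 under IFNg. The medians over all models were 0.235, 0.449, -0.243 and -0.181, and over the models of the same GC range -2.15, -4.29, 2.26 and 3.68.

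**Figure D2:**
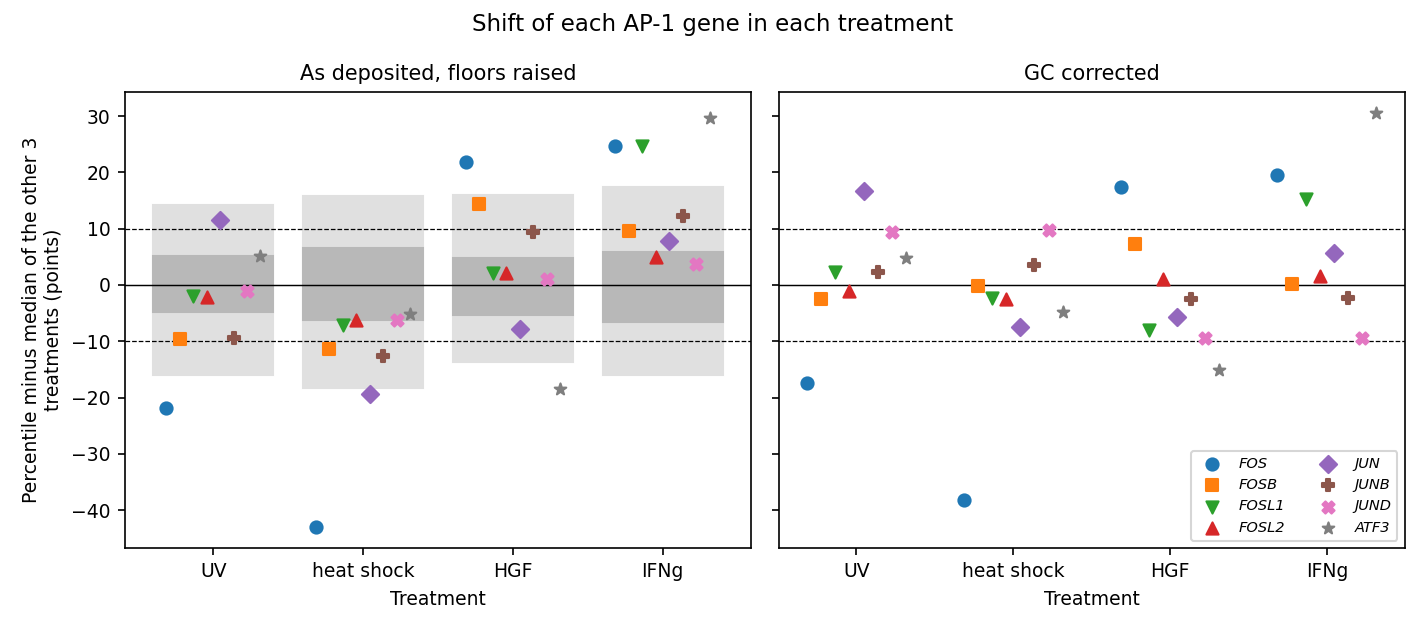
Each point is the percentile of 1 gene in 1 treatment minus the median of its other 3 treatments, in points, before (left) and after (right) GC correction; dark and light boxes on the left hold the middle 50% and 90% of 12624 gene models, and dashed lines mark 10 points. FOS under heat shock lies at -43.0, or -38.2 corrected, and ATF3 under IFNg at 29.6, or 30.6.

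The deposited table listed 35 m6A peaks in the 8 genes, 14 under UV, 6 under heat shock, 8 under HGF and 7 under IFNg. They fell in 6 of the genes, with none in FOSL1 or ATF3 in any treatment. At least 1 peak was listed for 6 of the 8 genes under UV, 3 under heat shock, 5 under HGF and 5 under IFNg, against 54.5%, 43.9%, 42.2% and 27.8% of all models. The total number of peaks also differed between treatments, from 13307 under UV to 9803 under heat shock, 9111 under HGF and 5280 under IFNg, so fewer peaks in a gene cannot be told apart from fewer peaks called. A peak not listed does not show that the modification is missing. The score is the authors' own and its formula is not given in the sources used here, so it is read only as a score rank, the percent of that treatment's peaks with the same or a lower score.

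Joining peaks of a gene within 100 nt gave 18 sites. Of these, 10 were listed in 1 treatment, 2 in 2, 3 in 3 and 3 in all 4. By the authors' segments the 35 peaks comprised 11 around the stop codon, 10 in the 3′ untranslated region, 7 in coding sequence, 6 in the 5′ untranslated region and 1 at the transcript start. Over the 4 treatments, the share of all annotated peaks in the 5′ untranslated region ranged from 1.57% under IFNg to 2.86% under UV, and the share around the stop codon from 27.2% to 29.4%. The 6 peaks of the 5′ untranslated region belonged to 3 genes, FOSB, FOSL2 and JUN, and several were the same site in different treatments.

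The FOSB site in the 5′ untranslated region had the highest score rank of the 35 peaks. It was listed at position 445 under UV with a score rank of 99.8, at 453 under HGF with 54.7 and at 452 under IFNg with 45.0, in exon 1 of 718 nt. Under UV the score was the 31st highest of 13307 peaks and the 2nd highest of 370 in the 5′ untranslated region. That was the treatment with FOSB at percentile 47.2, where 9.72% of gene models within 2.5 points of its rank had a peak, and 3.12% had 2 or more. The FOSB stretch printed above shows a GGACA at 447 and a GGACT at 463. That GGACT is the first of 3 copies within 45 nt, starting at 463, 483 and 503 in the 592 nt of 5′ untranslated sequence, and all 3 listed positions lie before them. The other FOSB peak was at 1674 in exon 4, around the stop codon, under UV, with a score rank of 74.0 and no core within 50 nt. Under heat shock FOSB had no peak, and 0.888% of models near its rank there had one.

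FOS had 3 peaks under UV, at 81 (transcript start, exon 1, score rank 39.6), 984 (coding, exon 4, 45.4) and 1480 (around the stop codon, exon 4, 18.4). Under IFNg it had 1 peak, at 1163 (around the stop codon, exon 4, 45.9), and under HGF and heat shock it had none. No FOS site was shared between treatments. Under UV 10.3% of models near its rank had 3 or more peaks. Under HGF, where FOS stood at 88.5, 52.7% of models near its rank had at least 1. Under heat shock only 1.85% of models near its rank had a peak. The GGACT at 1474 in the FOS stretch above lies 6 nt from the peak at 1480, the nearest core to 984 was a GGACC 47 nt away, and no core lay within 50 nt of 81 or 1163.

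FOSL2 had 9 peaks on 4 sites. The site at 2026 to 2081 in the 3′ untranslated part of exon 4 was listed in all 4 treatments, with score ranks of 53.0 under UV, 33.4 under heat shock, 73.8 under HGF and 85.7 under IFNg. The GGACA in the FOSL2 stretch above starts at 2063, inside that range, and lies 275 nt past the stop codon. A neighbouring site at 2448 to 2477 was listed in all but IFNg, with low score ranks of 30.2 under UV, 7.07 under heat shock and 0.659 under HGF. A site at 2940 was listed under IFNg alone at a score rank of 2.92, and a site in the 5′ untranslated region at 635 under heat shock alone at 29.1.

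JUN is a single-exon gene of 3323 nt, and it had 2 sites. The site in the 5′ untranslated region was listed at 977 under UV (score rank 47.3) and at 905 under heat shock (13.0). The second site was listed at 2272 under UV, in the 3′ untranslated region at 65.7, and at 2233 under HGF, around the stop codon at 86.9. These 2 peaks lay 39 nt apart, on either side of the boundary between the authors' segments. Under IFNg JUN had no peak at percentile 83.1, where 40.9% of models near its rank had one.

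JUNB, also a single exon, had a site at 1331 to 1367 around the stop codon under UV, HGF and IFNg. Its score ranks were 26.7, 67.8 and 88.2. The JUNB stretch above holds a GGACA at 1340, about 22 nt past the stop codon. A coding site at 591 was listed under UV alone (25.4) and a site at 1633 in the 3′ untranslated region under HGF alone (75.1). Under heat shock JUNB had no peak, at a rank where 54.8% of models had at least 1.

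JUND, like FOSL2, had 9 peaks, here on 3 sites, and both of its repeated sites were listed in all 4 treatments. The peaks around the stop codon lay within 7 nt of each other, at 1346 under UV, 1346 under heat shock, 1350 under HGF and 1343 under IFNg. Their score ranks were 50.3, 24.2, 48.4 and 23.0. The coding site lay at 895, 890, 928 and 963 in the same order, with score ranks of 5.51, 17.7, 33.0 and 53.8. The JUND stretches above hold a GGACA at 927, within the range of the coding site, and a GGACT at 1360. A coding peak at 350 was listed under UV alone, at 21.8.

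**Figure D3:**
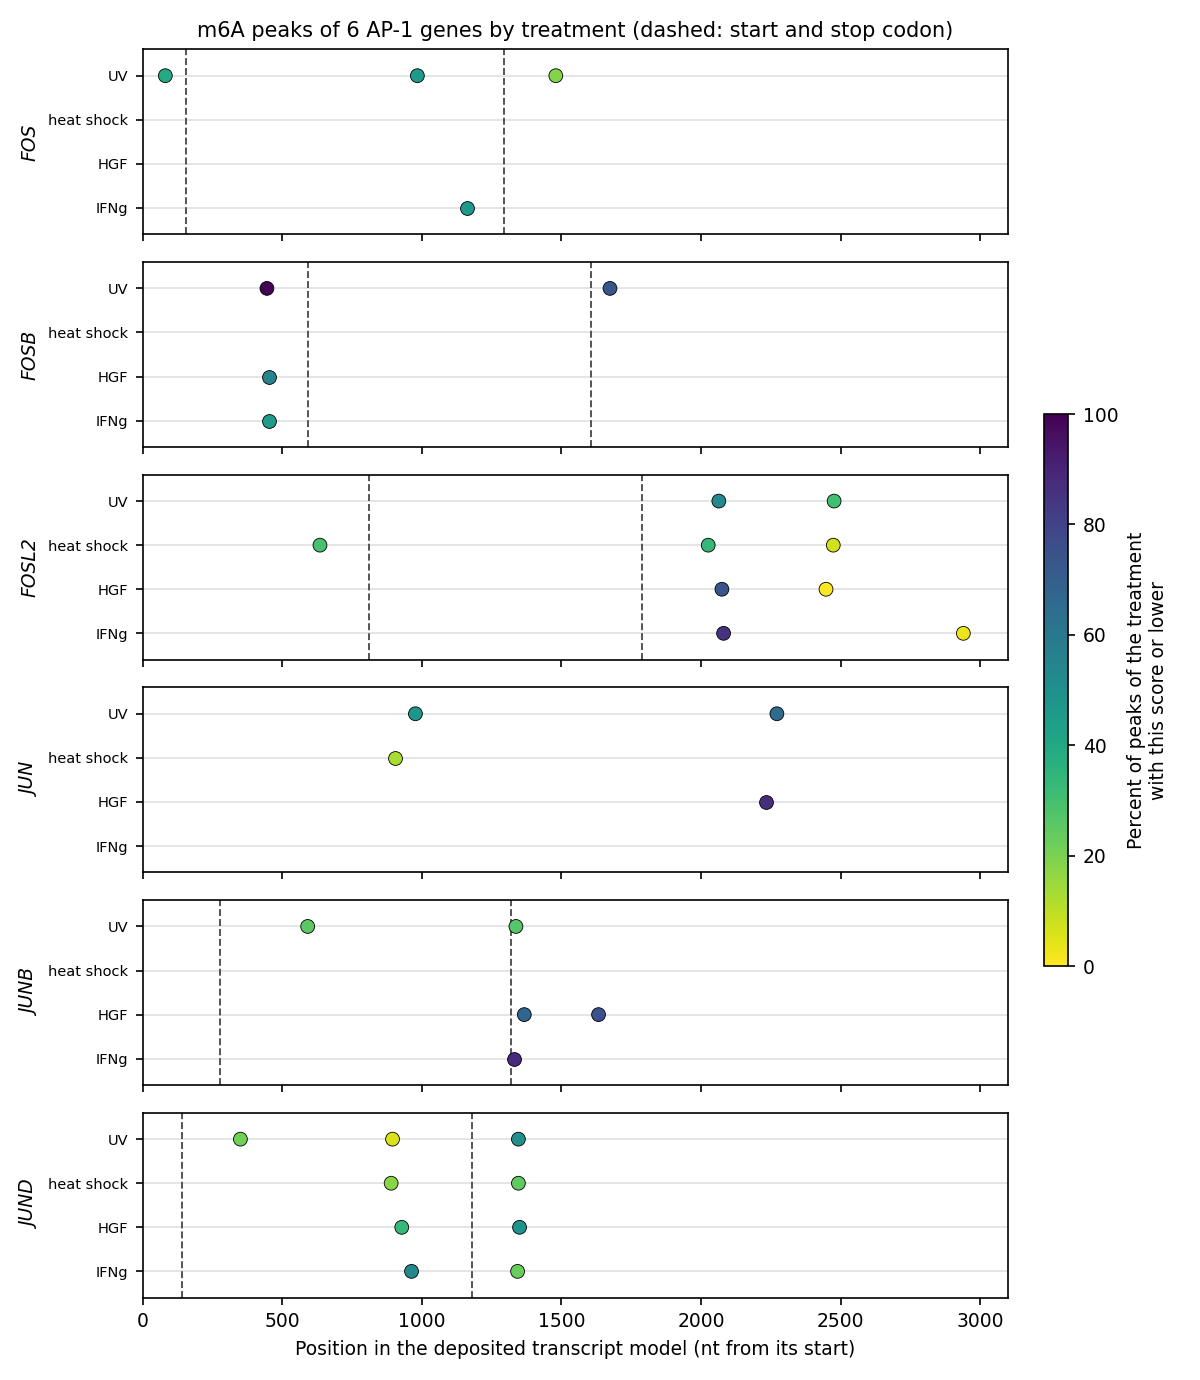
Each point is 1 listed m6A peak of the 6 AP-1 genes that had any, placed by its position in the deposited transcript model (nt) and by treatment, and coloured by score rank within the treatment; dashed lines are the start and stop codon of the matched transcript (not placed for JUN). FOSL2 near 2064 and JUND near 895 and 1346 have a peak in every treatment, and the darkest point is FOSB at 445 under UV.

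Of the 16 sites in the 5 genes placed on GENCODE transcripts, 10 had GGAC followed by A, C or T starting within 50 nt on the transcript strand, and 3 had a GGACT. Of all 105-nt windows tiled over the longest protein-coding transcript of 19669 genes, 27.9% held the core and 9.47% held GGACT. The windows were not matched on base composition. A match is a description of the letters and does not place the modification.

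FOSL1 and ATF3, the 2 genes without a peak, were not low in rank throughout. Under IFNg they stood at 91.8 and 90.2, where 41.5% and 42.3% of models near their ranks had at least 1 peak. Under UV these shares were 55.2% and 50.1%. The plot of peaks against percentile shows that genes at similar ranks, such as FOS and FOSL1 under UV, had from 3 peaks to none.

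**Figure D4:**
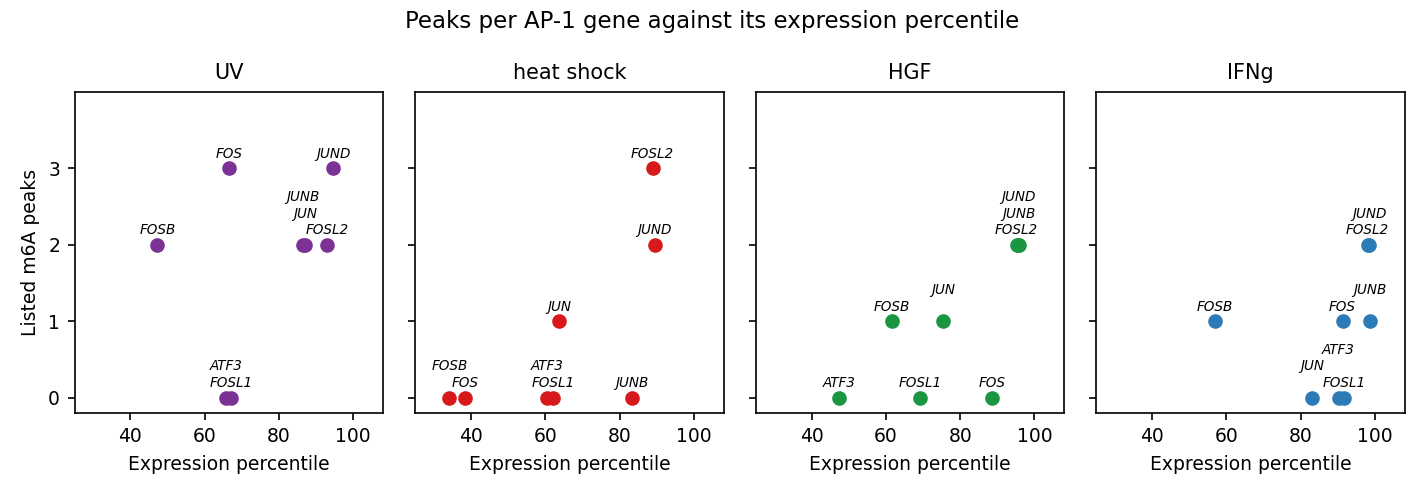
Each panel is a treatment, with the expression percentile of each AP-1 gene on the horizontal axis and its number of listed m6A peaks on the vertical axis. Under UV, FOS at 66.7 has 3 peaks while FOSL1 at 67.1 and ATF3 at 65.7 have none.

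Genes whose 4 percentiles lay closest to those of a member were sought among 11177 gene models, by the largest difference over the 4 treatments. For FOS these were MPG (4.46 points), ZBTB17 (5.26) and NPDC1 (5.62). For ATF3 they included CASP1, the inflammatory caspase (1.80), and KLF4 (8.14). JUN was closest to SIVA1 (4.38), FANCG (4.55) and RAB24 (4.68), and JUND to IRAK1 (1.20), PHGDH (1.25) and SLC1A5 (1.36). Likeness over 4 values is a description only. CASP1, like ATF3, had no peak in any treatment, whereas KLF4 had 4 under UV, 1 under heat shock, 1 under HGF and 2 under IFNg.

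The proteins that pair with AP-1 or share its bZIP domain were examined as a list of 19, of which 18 passed the filter. Under IFNg, 9 were at least 10 points above the other treatments and 1 below, against 15.4% of all models each way, and 8 and 1 with GC correction, against 6.81% and 8.57% of corrected models. MAFF, a small MAF protein without an activation domain, stood at 49.9 under UV, 53.5 under heat shock, 69.3 under HGF and 90.3 under IFNg. BATF2, an AP-1 partner known as interferon-responsive, stood at 45.5, 46.1, 45.4 and 76.4 in the same order, and it passed the filter through IFNg alone. With GC correction the IFNg shifts of MAFF and BATF2 were 20.5 and 23.8. MAFK stood at 92.3 under IFNg, a shift of 18.3 points that was 4.87 with GC correction. Before correction ATF2 was the 1 gene below under IFNg, at 83.0 against 90.1 to 93.5 elsewhere, and its shift of -10.2 points was 3.49 with GC correction. With correction the 1 below was CEBPD, at -10.9 from 3.16 before. The genes counted above also changed. ATF5 (4.98), MAFG (2.27) and MAFK were no longer counted, whereas ATF1 (14.5, from 1.80) and CREB1 (12.1, from 4.88) were. CEBPD, MAFG, ATF1 and CREB1 were named after their values were seen. Under UV and heat shock 0 were above and 5 below, against 13.2% and 17.0% of all models below, with ATF5 (71.5 and 66.5, against 89.9 under HGF and 88.3 under IFNg) and MAFF in both. JDP2, a repressor that pairs with JUN, was below under UV, and ATF7 under heat shock. The ATF5 shifts of -16.7 and -21.8 points were -4.98 and -7.36 with GC correction, and those of MAFF were -8.58 and -1.42. The list counts were then 1 above and 1 below under UV, against 7.23% and 6.58% of corrected models. Under heat shock they were 1 and 4, against 7.81% and 6.30%. The 1 above was CEBPD (15.5), and the 4 below were CREM (-17.6), ATF7 (-13.8), CREB1 (-12.3) and ATF1 (-11.2). Of these, all but ATF7 were named after their values were seen. Before correction the shifts were -0.803, -11.4, -11.8, -5.09 and 0.702 in the same order. The correction thus reversed CEBPD and ATF1, which stood at 93.4 and 89.7 under heat shock. Under HGF 3 were above (ATF5, MAFF and MAFK), and 1 was below, DDIT3, the stress factor CHOP, at 60.2 with 79.1 to 92.7 elsewhere, against 13.0% and 10.9% of all models. With GC correction the HGF shifts of ATF5, MAFF and MAFK were 8.28, 1.42 and -3.82, and that of DDIT3 was -17.3. The counts were then 1 above and 2 below, against 5.70% and 7.37% of corrected models. The list median was 9.08 points under IFNg and -6.29 under heat shock.

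Of 20 kinases upstream of AP-1, all passed the filter and the shifts went both ways. Under UV 1 was above and 2 below, against 10.9% and 13.2% of all models. The counts were 5 and 5 under heat shock (15.0% and 17.0%), 2 and 1 under HGF (13.0% and 10.9%), and 3 and 2 under IFNg (15.4% each way). With 20 genes, the counts under UV, HGF and IFNg were near those shares. MAPK3, which encodes ERK1, stood at 63.6 under UV, 73.2 under heat shock, 85.5 under HGF and 87.3 under IFNg. MAP2K7, an activator of JNK, stood at 72.4, 70.6, 85.8 and 85.0, and MAP2K4, the other JNK activator, stood at 79.2, 81.8, 66.9 and 68.3. MAPK8, which encodes JNK1, was highest under heat shock at 83.0, as were MAP3K7 (89.4) and MAP3K5 (62.8). RPS6KA5 was lowest under heat shock at 47.3, MAPK11 was highest under IFNg at 67.0, and RPS6KA3 lowest under IFNg at 70.4. MAP3K5 passed the filter through heat shock alone and MAPK11 through IFNg alone, the treatments in which they were counted above. With GC correction 1 was above (MAPKAPK2) and 1 below (RPS6KA5) under heat shock, against 7.81% and 6.30% of corrected models. The counts were 0 and 1 under HGF (5.70% and 7.37%), 1 (MAP2K6) and 0 under IFNg (6.81% and 8.57%), and 0 and 2 under UV (7.23% and 6.58%). MAPKAPK2 and MAP2K6 were named after their values were seen. The heat shock shift of MAPKAPK2, which stood between 89.5 and 92.4 in all treatments, was 2.20 before correction and 11.7 after it. The IFNg shift of MAP2K6 was 4.17 before correction and 12.3 after it. The corrected heat shock shifts of MAPK8, MAP3K7 and MAP3K5 were 4.80, 5.03 and 8.56. The corrected IFNg shifts of MAPK3, MAP2K7 and MAPK11 were 0.386, -2.49 and -3.32.

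The 7 factors that transcribe FOS gave 0 above and 2 below under UV and under heat shock, and 2 above and 0 below under HGF and under IFNg. ELK1, an ERK target at the FOS promoter, and MKL1, a coactivator of SRF, made up each of these counts. The shares of all models were 13.2% and 17.0% below under UV and heat shock, and 13.0% and 15.4% above under HGF and IFNg, so 2 of 7 genes is about 1 gene from the background. ELK1 stood at 67.8, 67.4, 84.3 and 87.6, and MKL1 at 79.2, 72.7, 90.6 and 90.9. With GC correction the ELK1 shifts were -11.4, -7.13, 7.13 and 8.40, and those of MKL1 lay between -3.73 and 1.40. ELK3, named after its values were seen, was then past 10 points in all 4 treatments (-10.5, -10.4, 10.4 and 12.7). Its shifts before correction were -5.60, -4.38, 4.38 and 5.93. The corrected counts were 2 below, 1 below, 1 above and 1 above, against 6.58%, 6.30%, 5.70% and 6.81% of corrected models.

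Among 10 genes for AU-rich element binding and for turnover of FOS and JUN, ZFP36, which encodes the FOS mRNA decay factor tristetraprolin, was lowest under heat shock at 56.9 and stood at 73.5 under UV. Under UV 1 was above (RFWD2, the ubiquitin ligase COP1 that targets JUN) and 1 below (DET1, its partner), and under heat shock 1 above (FBXW7, another JUN ligase) and 1 below (ZFP36). Under HGF DET1 alone was above. Under IFNg ZFP36L1 (97.8) and ZFP36L2 (91.3) were above, and RFWD2 (71.1) and FBXW7 (71.7) were below. Counts of 0 to 2 in 10 genes were near the shares of all models, which ran from 10.9% to 17.0% over treatments and directions. GC correction changed which of these genes passed 10 points. The counts above and below became 1 and 2 under UV, against 7.23% and 6.58% of corrected models, and 0 and 3 under heat shock (7.81% and 6.30%). They became 2 and 0 under HGF (5.70% and 7.37%), and 3 and 1 under IFNg (6.81% and 8.57%). DET1, ZFP36L1 and HNRNPD made up the 3 below under heat shock and the 3 above under IFNg. HNRNPD, named after its values were seen, was at -12.1 and 11.9 there. Its shifts before correction were only -0.972 and 0.972, at percentiles of 98.2 under heat shock and 99.2 under IFNg. The correction can move a gene so near the top, so neither corrected value shows a change of its rank. The ZFP36 shift under heat shock was then -1.02, that of RFWD2 under UV 8.11, that of FBXW7 8.75 under heat shock and -7.34 under IFNg, and that of ZFP36L2 under IFNg 3.65. Those of DET1 were -22.9 under UV and 19.5 under HGF, and that of ZFP36L1 under IFNg was 14.1.

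Of 22 known AP-1 target genes 13 passed the filter, and MMP1, MMP9, MMP10, PLAU and IL8 were among those that did not. Under UV and under heat shock 0 were above and 3 below, against 13.2% and 17.0% of all models below. Under HGF 1 was above and 2 below (13.0% and 10.9%), and under IFNg 5 were above and 0 below (15.4% each way). BCL3, a nuclear IκB protein, was at the lowest percentile under UV (45.5) and heat shock (32.7) and stood at 87.3 under HGF and 91.7 under IFNg. Its shifts of 41.7 points under HGF and 46.1 under IFNg were 25.8 and 27.5 with GC correction. TRIB3 stood at 96.5 under IFNg, with 71.7 to 83.5 elsewhere, and IL6 at 75.8, with 32.7 to 55.5 elsewhere. IL6 passed the filter through IFNg alone. PLAUR was below under UV at 65.5 and TIMP1 under heat shock at 85.0, while CCND1 (80.1) and GADD45B (70.3) were below under HGF. With GC correction these shifts were -12.4 for PLAUR, -4.88 for TIMP1, -11.1 for CCND1 and -19.5 for GADD45B. The corrected counts were 3 above and 1 below under IFNg, against 6.81% and 8.57% of corrected models. They were 1 above and 2 below under UV (7.23% and 6.58%), under heat shock (7.81% and 6.30%) and under HGF (5.70% and 7.37%).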

How the data were processed

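The table came from 1 pull-down and 1 input library for each of 4 treatments. The deposited expression quantile is a fraction from 0 to 1, per the file headers and values, multiplied here by 100, and it is not stated whether it comes from pull-down or input or is per length. The deposited peak score is the authors' own, with no formula. The transcript segments (unit other) are the deposited labels. Neither aligner, caller, build nor pooling is given in the sources used here, and deposited coordinates are not GRCh38.

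The members and lists were chosen with earlier results of these data known. Models that reached percentile 60 in at least 1 treatment passed the filter. Named genes were the 8 members, up to 3 genes of each list in each direction and treatment with the largest shift past 10 points, and the 3 nearest symbols for FOS, JUN, JUND and ATF3; some genes that the rule names are left out of the text. Models near a gene's rank are those within 2.5 points. GC content came from the longest GENCODE 29 transcript of the symbol and covered 88.6% of models. The ordering of treatment pairs, the lowest and highest treatment, and the GC correction of lists were chosen after values were seen. Scripts used Python 3.11.15, pandas 2.3.3, NumPy 2.4.6 and matplotlib 3.10.9, and the shift, GC and site functions were tested on simulated data. No statistical test was made.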

Additional observations from a re-analysis of the deposited data

How the results depend on the processing

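No paired analysis was possible because each treatment has 1 library of each kind and no result comes from a test. At 5 points instead of 10, the genes above and below under UV were 2 and 3, below under heat shock 8, and below under HGF 2. Shifts of 5 points were common. The middle 50% of all models ran from -4.88 to 5.11 under UV, -6.17 to 6.49 under heat shock and -5.33 to 4.80 under HGF. Against the nearest of the other 3 treatments, above and below under UV were 0 and 0, below under heat shock 2, above under HGF 0, and above under IFNg 2. No share over all models is given at either setting, so these counts cannot be read against a background. With GC correction, below under heat shock was 1 and above under HGF 1; both pairs below 3, both above 2, and lowest under heat shock 3. GC correction reversed JUNB under heat shock (3.56) and under IFNg (-2.30). Without the peaks whose scores lay below the 0.25 quantile of their treatment, 1 gene had a peak under heat shock. Floors as deposited kept the counts of shifts, and joins of 50 or 200 nt the counts of sites, within 1.5 times, but with floors as deposited the FOSB shift under heat shock was -22.7. Each symbol had 1 model, so using other models could change nothing. The cause of these moves was not tested. Without a filter the background shares were lower, from 5.60% to 8.57%.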

Other observations

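Peaks were also counted in the genes around AP-1. Among the 19 partner and bZIP genes, 12 had a peak under UV, 12 under heat shock, 9 under HGF and 10 under IFNg, and among the 20 kinases the counts were 16, 12, 9 and 6, against 54.5%, 43.9%, 42.2% and 27.8% of all models that passed the filter. The 19 include BATF, which did not pass the filter and had no peak in any treatment. The genes named next were chosen after their values were seen. ATF4, the effector of the integrated stress response, had no peak in any treatment, at percentiles of 94.4, 91.7, 99.2 and 99.2. STAT3, which acts on the FOS promoter, likewise had none, at 95.3, 93.7, 96.0 and 98.0. For scale, 67.9%, 56.5%, 49.1% and 38.2% of models at percentile 90 or higher had at least 1 peak in these treatments. MAP3K1 stood at 56.2 to 67.5 and had 4, 3, 2 and 1 peaks, and MAP3K4 had 3, 4, 4 and 1.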
